A study of Mus musculus with 4 samples.

Results

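The collagen genes are the family that encodes the chains of collagen, and they were chosen by symbol alone: every gene named Col, a number, a and a second number. The rule found 44 of the 32285 genes in the deposited matrices, and the rule itself uses no expression value. Their expression was followed through single-nucleus RNA-seq of the posterior hindbrain, the area holding the area postrema and the nucleus of the solitary tract, which relay signals from the gut and blood to the feeding circuits. The study compared 2 groups of mice, with 2 libraries in each. AgRP-Gq;POMC-Gi mice carried AgRP-IRES-Cre with a floxed hM3DGq receptor and POMC-Dre with a rox-stopped hM4DGi receptor, so that the hunger-promoting AgRP neurons were excited and the satiety-promoting POMC neurons were silenced by the same ligand. AgRP neurons lie in the hypothalamus, outside the tissue dissected, and POMC neurons lie there and, in smaller number, in the nucleus of the solitary tract. Control mice are labelled WT, while the study's methods describe controls with receptor alleles and no recombinase. All mice were 12 to 20 weeks old, and all received the receptor ligand CNO at 3 mg per kg, 1 h before the tissue was taken. Animals of both sexes were used, and the methods say that samples of a condition were pooled, with 2 mice per group, but not how animals were divided among the libraries. Because the labels do not say how the libraries of a group were separated, p-values measure only the spread between these libraries, which may be partly technical. The AgRP-Gq;POMC-Gi libraries are called the DREADD libraries from here on, and values per library are given in the order control 1, control 2, DREADD 1 and DREADD 2.

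A collagen molecule is a rope of chains wound around each other, and each chain type is encoded by its own gene. Fibril-forming collagens such as types I, III and V build the tensile fibres of connective tissue, type IV builds the sheet of every basement membrane, and type VI forms beaded filaments at the cell surface. Fibril-associated collagens coat the fibres, network collagens such as type VIII form lattices, transmembrane collagens span the plasma membrane and multiplexins sit in basement membranes. In the brain, collagen protein lies largely in the meninges, the vessels and the choroid plexus, and the tissue between neurons is otherwise poor in fibres. Several collagens are nevertheless known from neurons, among them transmembrane type XXV, which motor axons need to reach muscle, and type XIX, which takes part in synapse formation.

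The 4 libraries held 9725, 10051, 9723 and 9962 nuclei that passed the authors' quality control, 39461 in all, with 48904976 to 53089402 UMIs per library and a median of 3211 to 3502 unique molecular identifiers (UMIs) per nucleus. Levels are given as CPM, the UMIs of a gene per 1000000 UMIs of the same nuclei. Among these nuclei the authors' annotation gave 14 cell types and 184 clusters, 134 of them neuronal. The paper counts slightly more clusters, both in all and among neurons. In a check of 13 types against lists of known markers, every list was highest in the type it was written for. One cluster went against its label: cluster 138, annotated Oligodendrocytes/OPC, had a summed fibroblast marker level of 4105 CPM. Between 19 and 36 nucleus barcodes were shared by any pair of libraries. Choroid plexus nuclei came almost wholly from control 2 and DREADD 2, with 2, 436, 6 and 329 nuclei, so that type is described beside the others and was not compared between groups. The summed level of the choroid plexus marker list was high in the same libraries in other types too, at 6.63, 3354, 25.1 and 2100 CPM in oligodendrocytes and 7.56, 1014, 12.6 and 590 CPM in neurons. The part of these transcripts in the collagen levels was not tested. Intervals and limits quoted for shares of nuclei cover counting error only.

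All 44 genes were detected, from 125 UMIs for Col6a6, a type VI chain, to 21359 for Col11a1, a fibril-forming chain. Their summed level was highest in fibroblasts, at 6269, 4268, 4572 and 4641 CPM, a mean of 4937 ± 902 (SD, n = 4 libraries). The annotated Oligodendrocytes/OPC type came next by mean, at 1745 ± 812 CPM, with libraries at 980, 2599, 2275 and 1125 CPM. The mean was 1620 ± 118 CPM in mural cells, 867 ± 76.6 CPM in endothelial cells and 1088 ± 58.2 CPM in ependymal cells. Tanycyte-like cells averaged 1124 ± 314 CPM. It was 718 ± 15.9 CPM in neurons, 520 ± 21.9 CPM in astrocytes and 194 ± 8.88 CPM in oligodendrocytes. The choroid plexus, over the 3 libraries with at least 5 of its nuclei, stood at 3474 ± 68.8 CPM. The fibroblast libraries lay above all libraries of each of these types, while mural and endothelial cells did not overlap either.

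Fibroblasts were the type with the highest mean level for 20 of the 44 genes, among the 13 types present in every library with at least 5 nuclei. The annotated Oligodendrocytes/OPC type led for 6 genes, mural cells for 4, and neurons, endothelial and ependymal cells for 3 each. Microglia, annotated Tmem119.Immune, led for 2, and oligodendrocytes, oligodendrocyte precursors (OPC) and tanycyte-like cells for 1 each. For 20 genes the libraries of the leading type lay wholly above those of the next type, and 9 of these were fibroblast genes. For 5 genes the leading value rests on fewer than 20 UMIs and gives no order, namely Col2a1, Col6a6, Col7a1, Col10a1 and Col17a1. Differences between cell types are given as levels with their spread and were not tested, because the types were themselves defined from expression.

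**Figure D1:**
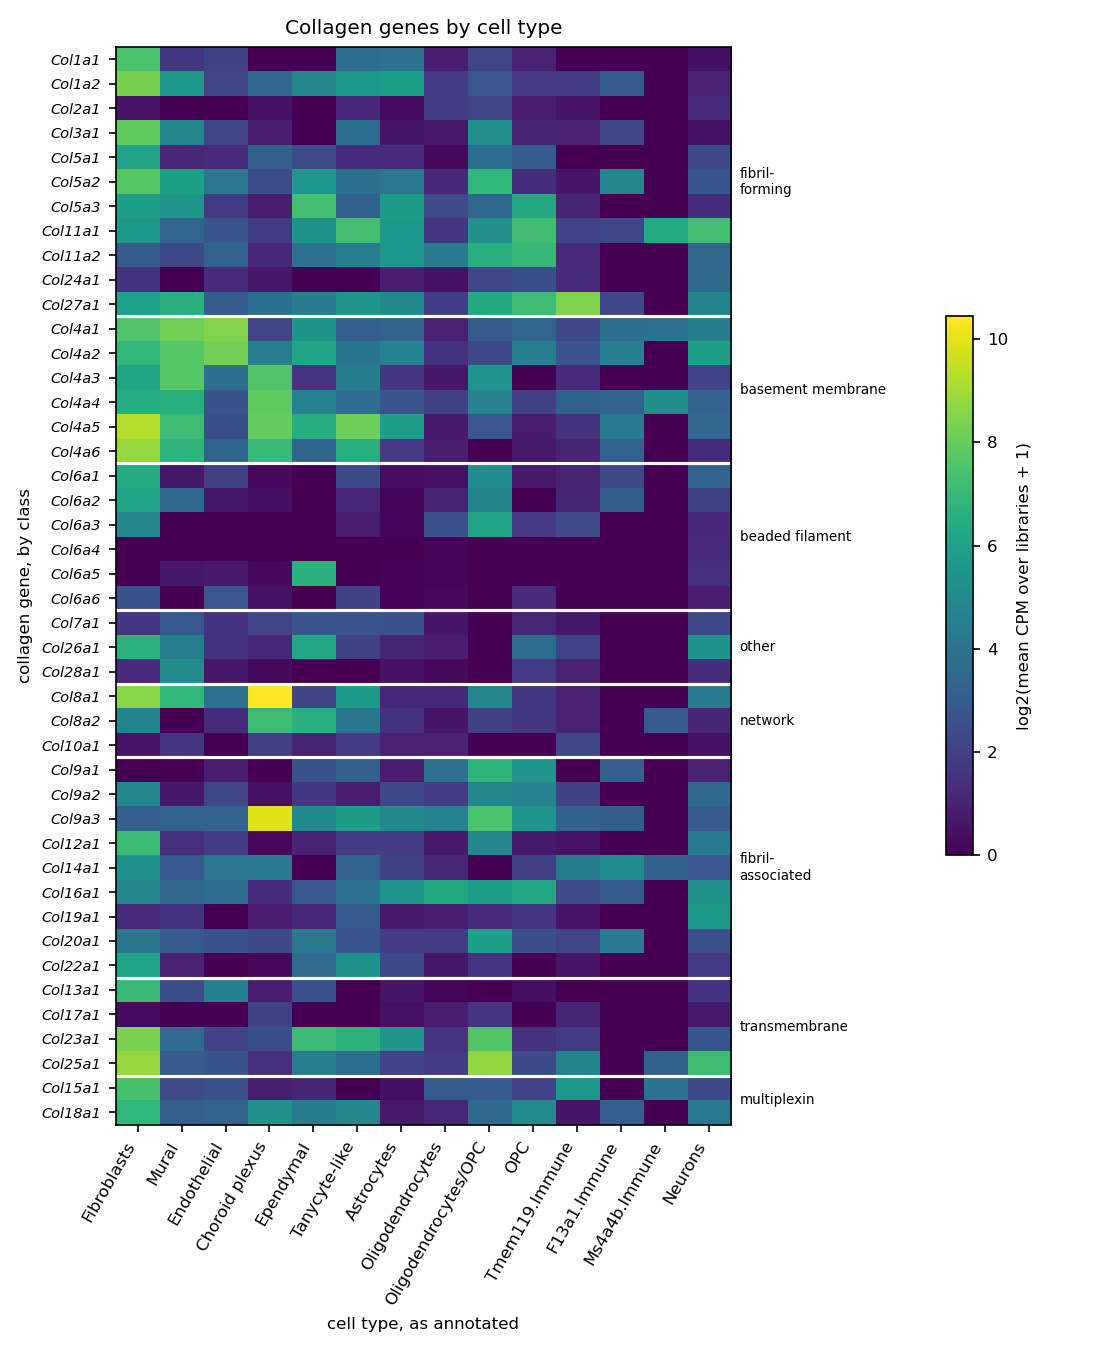
Heat map of the 44 collagen genes (vertical axis, grouped by class) in the 14 annotated cell types (horizontal axis), coloured by log2 of the mean CPM over libraries plus 1. The fibroblast column is filled across most classes, and the oligodendrocyte and immune columns are dark for most genes.

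Promoter windows of 4 type IV genes are shown first, because the 6 type IV chains lie in the genome as 3 pairs that are read away from each other, and members of a pair shared their cell types in part. On GRCm38 the annotated starts of Col4a1 and Col4a2 lie 21 bases apart on chromosome 8. Those of Col4a3 and Col4a4 lie 72 bases apart on chromosome 1, and those of Col4a5 and Col4a6 lie 1309 bases apart on chromosome X. The sequences are RefSeq promoter windows of 300 bases, from 250 before to 50 after the gene's RefSeq start (position 251), written 5′ to 3′ on the strand of the named gene. Capitals mark the CCAAT box or the GC box GGGCGG on either strand. The windows are chr8:11312777-11313076 on the minus strand for Col4a1, chr1:82586800-82587099 on the minus strand for Col4a4, chrX:141475169-141475468 on the plus strand for Col4a5 and chrX:141474027-141474326 on the minus strand for Col4a6.
Col4a1: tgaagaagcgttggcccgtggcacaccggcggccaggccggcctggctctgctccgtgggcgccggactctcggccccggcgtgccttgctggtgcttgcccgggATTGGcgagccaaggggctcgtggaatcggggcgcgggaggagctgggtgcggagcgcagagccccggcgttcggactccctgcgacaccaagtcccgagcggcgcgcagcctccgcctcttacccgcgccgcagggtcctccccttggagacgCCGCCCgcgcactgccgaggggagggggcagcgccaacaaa
Col4a4: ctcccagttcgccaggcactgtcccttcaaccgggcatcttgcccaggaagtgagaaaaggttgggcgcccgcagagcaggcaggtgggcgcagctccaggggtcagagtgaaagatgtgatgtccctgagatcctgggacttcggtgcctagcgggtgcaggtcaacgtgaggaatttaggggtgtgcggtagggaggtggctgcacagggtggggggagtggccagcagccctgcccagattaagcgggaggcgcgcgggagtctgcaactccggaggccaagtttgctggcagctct
Col4a5: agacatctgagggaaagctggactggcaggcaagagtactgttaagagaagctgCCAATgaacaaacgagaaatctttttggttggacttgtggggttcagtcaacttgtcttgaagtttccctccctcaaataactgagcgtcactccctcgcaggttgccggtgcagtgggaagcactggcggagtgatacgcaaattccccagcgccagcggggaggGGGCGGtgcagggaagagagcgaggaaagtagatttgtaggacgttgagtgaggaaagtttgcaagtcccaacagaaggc
Col4a6: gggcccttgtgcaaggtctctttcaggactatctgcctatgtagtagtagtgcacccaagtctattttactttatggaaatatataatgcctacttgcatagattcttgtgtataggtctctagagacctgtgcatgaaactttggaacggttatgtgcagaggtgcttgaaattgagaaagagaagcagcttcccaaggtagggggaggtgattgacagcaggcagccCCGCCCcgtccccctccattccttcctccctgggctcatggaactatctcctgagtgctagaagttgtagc
The Col4a1 window also holds the annotated start of Col4a2, at position 272, and the Col4a4 window that of Col4a3, at position 179. Neither window of the X-linked pair holds both starts. The GC content was 74% for Col4a1, 63.3% for Col4a4, 52.7% for Col4a5 and 48.3% for Col4a6. None of the 4 windows held TATAAA, and the Col4a4 window held none of the motifs searched. A promoter window was found for 35 of the 44 collagen genes. Among these 35 genes, TATAAA was present in 5, CCAAT in 13 and GGGCGG in 22, each counted on both strands and independently of the others. These genes had 38 windows, and a gene was counted when any of its windows held the motif. Over all 32851 windows of this length, counted by window and not by gene, the shares were 13.6%, 37.4% and 35.7%. The difference between genes and windows was not tested.

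The vascular pair Col4a1 and Col4a2, which encodes the chains found in nearly all basement membranes, was led by endothelial cells with mural cells next. Col4a1 measured 406, 370, 280 and 361 CPM in endothelial cells and 297, 292, 365 and 232 CPM in mural cells. Those ranges overlap, so endothelial and mural cells were not told apart for this gene. Col4a2 measured 357, 288, 291 and 257 CPM in endothelial cells against 222, 201, 176 and 217 CPM in mural cells, and here the libraries did not overlap. A Col4a1 UMI was found in 38.1% of endothelial nuclei against 0.268% of oligodendrocyte nuclei, with median depths of 1460 and 2460 UMIs. Oligodendrocytes serve throughout as the type that should lack a gene, apart from Col16a1 and the type IX and XI chains that they share with their precursors. After thinning to 800 UMIs per nucleus the endothelial share was 22.2%. Col4a2 was also present in neurons, at 60.7, 58.7, 62.5 and 60.0 CPM.

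Col4a3 and Col4a4, chains of the specialised membranes of kidney and lung, were led by mural cells. Col4a3 measured 258, 205, 176 and 198 CPM there, and the next type, fibroblasts, averaged 71.8 ± 40.6 CPM. The choroid plexus, not ranked with the other types, averaged 186 ± 61.8 CPM over 3 libraries, and its range overlapped that of mural cells. Col4a4 measured 121, 74.7, 94.7 and 74.8 CPM in mural cells and 83.4, 83.0, 74.5 and 112 CPM in fibroblasts, which overlap. The choroid plexus exceeded both for Col4a4, at 237 ± 39.4 CPM over 3 libraries.

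Col4a5 and Col4a6, the X-linked chains, were led by fibroblasts. Col4a5 measured 1057, 405, 452 and 559 CPM in fibroblasts and averaged 278 ± 68.6 CPM in tanycyte-like cells. Col4a6 measured 884, 267, 246 and 383 CPM in fibroblasts and averaged 114 ± 24.6 CPM in mural cells. Control 1 was the highest library for both genes, and 76.4% of its fibroblast nuclei belonged to cluster 44, against 15.1%, 10.8% and 16.5% in the other three. Across the 50 non-neuronal clusters Spearman's rho between levels was 0.83 for Col4a1 with Col4a2, 0.75 for Col4a3 with Col4a4 and 0.74 for Col4a5 with Col4a6. Across the 134 neuronal clusters it was 0.60, 0.58 and 0.18. These are descriptions over clusters that share their 4 libraries and differ in depth.

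Of the 11 fibril-forming genes, 5 were led by fibroblasts, among them both chains of type I, the main fibre of skin and bone. Col1a1 measured 189, 153, 174 and 188 CPM in fibroblasts, with a UMI in 29.1% of nuclei, 11.5% after thinning, and averaged 14.3 ± 1.79 CPM in astrocytes, the next type. Col1a2 measured 328, 281, 316 and 334 CPM in fibroblasts and 53.0, 72.7, 52.0 and 64.9 CPM in astrocytes. The astrocyte level was thus 19.5 ± 4.49% of the fibroblast level for Col1a2 and 8.26 ± 1.83% for Col1a1, and within each library the share was higher for Col1a2. In astrocytes 17.2% of nuclei held a Col1a2 UMI, against 0.666% of oligodendrocyte nuclei, at median depths of 3376 and 2460 UMIs. The summed level of the fibroblast marker list in astrocytes was 39.6, 50.1, 40.3 and 47.7 CPM, against a mean of 4087 CPM in fibroblasts, and its part in the astrocyte level of Col1a2 was not tested. Spearman's rho between the type I chains was 0.64 across the 50 non-neuronal clusters and 0.06 across the 134 neuronal ones, as a description.

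Col3a1, the type III chain of soft tissue and vessel walls, measured 300, 178, 205 and 269 CPM in fibroblasts. The type V chains Col5a1 and Col5a2, which set the width of fibrils, averaged 63.7 ± 18.5 and 211 ± 44.1 CPM there. Their relative Col5a3 had its highest level in ependymal cells, at 113, 214, 169 and 126 CPM, which lay above all OPC libraries, the next type. Col27a1, a chain best known from cartilage, was led by microglia at 365, 314, 368 and 322 CPM, 2.38 times the mean of OPC, which measured 132, 122, 164 and 156 CPM. The microglial and OPC libraries did not overlap. Col11a2, a type XI chain, was highest in OPC at 129, 107, 118 and 138 CPM, which overlapped with Oligodendrocytes/OPC, at 94.3 ± 44.4 CPM. Without cluster 138 the leading type was Oligodendrocytes/OPC, where cluster 136 stood at 142 ± 49.9 CPM. Its partner Col11a1 had overlapping libraries in tanycyte-like cells, at 74.9 to 243 CPM, in neurons, at 136 to 177 CPM, and in OPC, at 122 to 187 CPM. Col24a1, a late fibril-forming chain, was highest in neurons at 15.4, 9.59, 9.72 and 10.1 CPM.

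**Figure D2:**
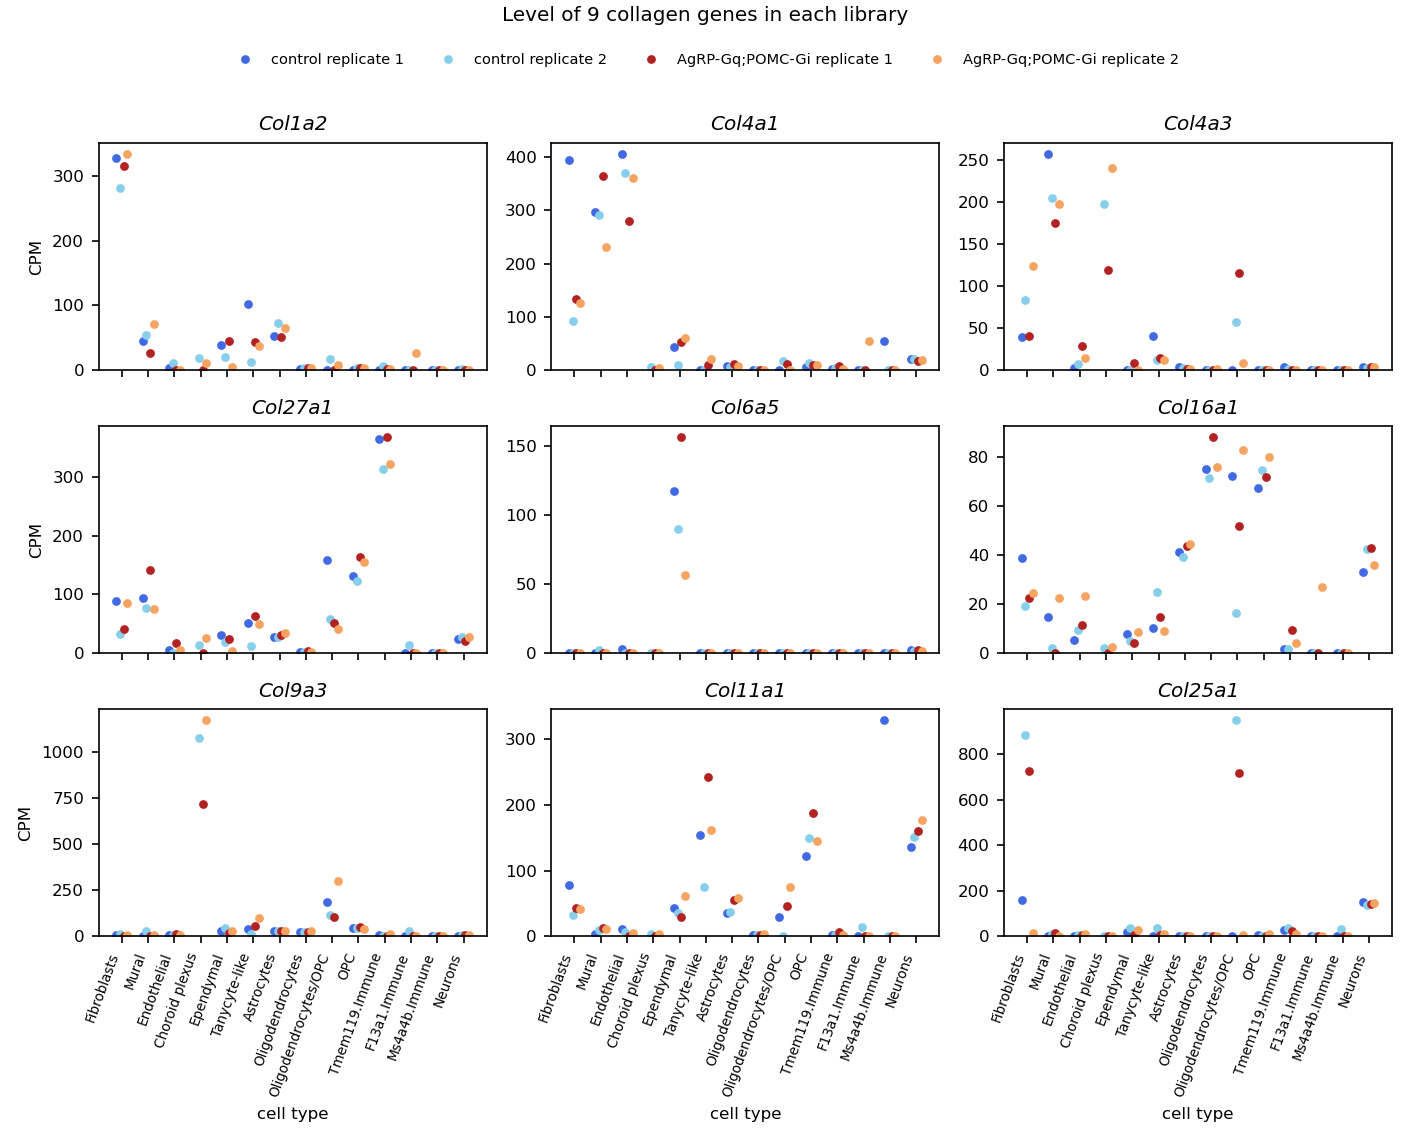
Level of 9 collagen genes in each of the 4 libraries (points coloured by library, 1 panel per gene, CPM on a vertical axis from 0) across the annotated cell types, leaving out libraries with fewer than 5 nuclei of a type. Col27a1 in Tmem119.Immune stays between 314 and 368 CPM, while Col25a1 in fibroblasts runs from 17.1 to 883 CPM.

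Of the 6 beaded-filament genes, Col6a1 and Col6a2, the chains common to all type VI filaments, averaged 82.2 ± 16.2 and 65.7 ± 6.31 CPM in fibroblasts. Col6a3 was led by the annotated Oligodendrocytes/OPC type, at 0, 157, 86.6 and 24.8 CPM, where most nuclei of control 2 and DREADD 1 belong to cluster 138. Without that cluster its leading type was fibroblasts. Col6a5 stood apart in ependymal cells, the ciliated lining of the ventricle, at 117, 89.6, 157 and 56.5 CPM, whereas no other type averaged above 1.73 CPM. Within ependymal cells Col6a5 averaged 155 ± 57.8 CPM in cluster 37 and 11.8 ± 8.44 CPM in cluster 71. Col23a1, a transmembrane chain, went the other way, with 54.1 ± 26.3 CPM in cluster 37 and 275 ± 103 CPM in cluster 71. Col6a4 was sparse and highest in neurons, at 1.35 ± 0.295 CPM.

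Among network collagens, Col8a1, a chain of vessel and corneal membranes, averaged 389 ± 201 CPM in fibroblasts and 120 ± 36.1 CPM in mural cells. The choroid plexus exceeded both, at 1390 ± 221 CPM over 3 libraries. Its partner Col8a2 was highest in ependymal cells at 82.0, 124, 74.1 and 86.9 CPM, with 143 CPM in the choroid plexus. Of the type IX chains, which decorate cartilage fibrils, Col9a3 also exceeded its other types in the choroid plexus, at 987 ± 240 CPM. Among the 13 compared types it was led by Oligodendrocytes/OPC at 187, 116, 104 and 298 CPM, and cluster 136 of that type carried most of it, at 266 ± 64.0 CPM. Cluster 136 expressed the myelin gene Mbp together with the precursor gene Vcan, and Col9a1 there averaged 156 ± 45.1 CPM.

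Among the other fibril-associated genes, Col12a1 and Col14a1, which bridge fibrils in tendon and skin, were led by fibroblasts. Col12a1 averaged 140 ± 48.4 CPM there, and Col14a1 averaged 38.7 ± 37.4 CPM with libraries at 11.1, 65.8, 2.26 and 75.7 CPM. Col16a1 was the only collagen gene led by oligodendrocytes, the myelinating cells, at 74.9, 71.2, 88.1 and 75.8 CPM, and OPC stood close to it at 73.2 ± 5.27 CPM. Within oligodendrocytes it ranged from 26.3 CPM in cluster 1 to 380 ± 22.8 CPM in cluster 26. Col19a1 was highest in neurons, at 53.8, 42.7, 52.6 and 47.9 CPM, and the next type averaged 7.08 ± 5.39 CPM. A Col19a1 UMI was found in 24.2% of neurons and in 0.190% of oligodendrocytes, and in 2.97% of neurons after thinning, at median depths of 8704 and 2460 UMIs. Col22a1, a chain of tissue junctions, averaged 63.2 ± 30.7 CPM in fibroblasts and 39.1 ± 39.0 CPM in tanycyte-like cells. Col9a2 was even between fibroblasts, at 28.6 ± 20.9 CPM, and Oligodendrocytes/OPC, at 28.2 ± 22.6 CPM, and without cluster 138 the latter led. Col20a1 was highest in Oligodendrocytes/OPC, at 58.0 ± 39.2 CPM.

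The genes outside these classes were sparse or spread widely. Col26a1 averaged 107 ± 48.7 CPM in fibroblasts and 75.0 ± 22.4 CPM in ependymal cells, whose libraries overlapped. Col7a1, the anchoring fibril of skin, averaged 6.30 ± 5.00 CPM in mural cells on 7 UMIs. Col28a1, an unusual chain known from peripheral nerve, was highest in mural cells at 31.8, 44.4, 27.0 and 33.7 CPM, with OPC next at 2.57 ± 0.393 CPM.

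The transmembrane collagens Col13a1, Col23a1 and Col25a1 were led by fibroblasts, with wide spreads. Col13a1, which is concentrated at muscle synapses, averaged 130 ± 41.5 CPM there, and Col23a1 averaged 337 ± 129 CPM. Col25a1 measured 161, 883, 727 and 17.1 CPM in fibroblasts and 0, 949, 716 and 8.27 CPM in the annotated Oligodendrocytes/OPC type. In neurons the same gene was even, at 151, 138, 144 and 145 CPM. A UMI was found in 30.4% of neurons (95% interval 29.6% to 31.3%), against 0.624% of oligodendrocytes, both before thinning. After thinning the neuronal share was 9.06%. The multiplexins Col15a1 and Col18a1, whose tails are cut into inhibitors of vessel growth, averaged 167 ± 169 and 118 ± 31.9 CPM in fibroblasts. Col15a1 measured 417, 54.4, 81.3 and 115 CPM, the highest library being control 1.

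The 5 fibroblast clusters differed in their collagen genes, and the libraries held them in unequal numbers. Cluster 44 carried the basement-membrane chains, with Col4a5 at 1398, 1371, 1795 and 1635 CPM and Col4a6 at 1196, 985, 1022 and 1485 CPM. The libraries of that cluster were close to each other where the whole type had differed between libraries. Col15a1 averaged 460 ± 132 CPM in the same cluster, and Lama1, a laminin chain, 2620 CPM. Cluster 44 lay above the other fibroblast clusters in every library with at least 5 nuclei for Col4a5, Col4a6 and Col15a1.

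Cluster 93 had another collagen profile. Col25a1 stood at 4550 and 3401 CPM in the 2 libraries with at least 5 of its nuclei, control 2 and DREADD 1, and a Col25a1 UMI was found in 93 of its 105 nuclei. In control 1 and DREADD 2, with 3 nuclei each, the level was 1919 and 0 CPM. Col8a1 averaged 1827 ± 766 CPM there. By contrast Col1a1 averaged 23.7 ± 12.5 CPM, and no UMI of Col4a6, Col13a1 or Col18a1 was counted in its 105 nuclei, which allows a share of up to 2.86% of nuclei with a UMI. Cluster 93 also carried the fibroblast genes Slc47a1 at 3276 CPM and Bnc2 at 3021 CPM. The fibroblast marker list, which holds Bnc2 and Dcn but not Slc47a1, summed to 3142 CPM there. Nearly all of that sum was Bnc2, so the other markers of the list were low in this cluster.

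The other fibroblast clusters had profiles of their own. Cluster 47 was highest for Col14a1, at 172, 197, 30.8 and 213 CPM, and Col3a1 averaged 410 ± 260 CPM in it. Cluster 69 held Col26a1 at 209 ± 19.6 CPM and Col5a1 at 147 ± 29.8 CPM, over the 3 libraries with at least 5 nuclei. Cluster 27, the largest, held Col4a5 at 529 ± 54.7 CPM with the proteoglycan gene Dcn at 1332 CPM. Cluster 138, the cluster labelled Oligodendrocytes/OPC, had Col25a1 at 1399 and 1252 CPM and Col23a1 at 633 and 560 CPM in control 2 and DREADD 1. Its other libraries held 0 and 2 nuclei. The myelin gene Mog stood at 10.5 CPM in cluster 138 and Bnc2 at 2610 CPM, so the levels of the Oligodendrocytes/OPC type mix 2 unlike clusters.

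**Figure D3:**
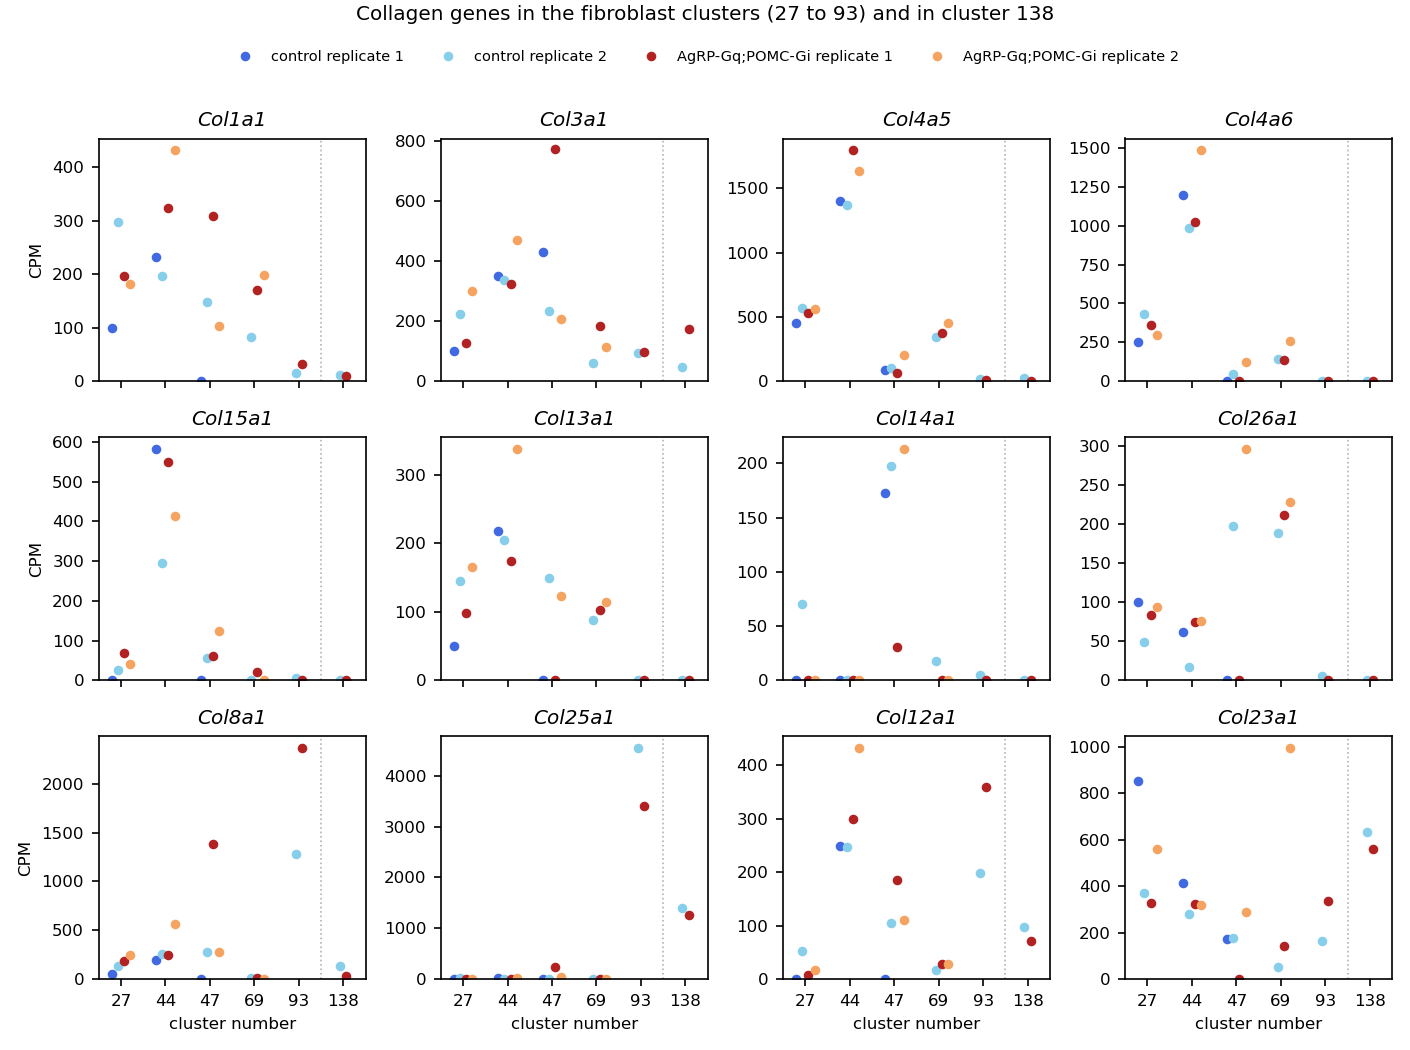
Level of 12 collagen genes (1 panel per gene, CPM on a vertical axis from 0) in the 5 fibroblast clusters and, right of the dotted line, in cluster 138, with 1 point per library holding at least 5 nuclei. Col4a5, Col4a6 and Col15a1 peak in cluster 44, and Col25a1 is highest in clusters 93 and 138.

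Vascular and tanycyte-like clusters differed too. Endothelial cluster 164 held Col4a1 at 835 CPM in control 2 and 948 CPM in DREADD 2, the libraries with at least 5 of its nuclei, where the other 5 endothelial clusters averaged between 314 and 340 CPM. Ttr, the main transcript of the choroid plexus, stood at 15677 CPM in this cluster, beside a summed choroid plexus marker level of 13.6, 7879, 40.8 and 4230 CPM over all endothelial cells, and its part in the collagen level was not tested. Tanycyte-like cluster 141 held Col23a1 at 278 ± 49.0 CPM against 18.7 ± 23.7 CPM in cluster 61.

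In neurons the collagen genes were distributed by cluster. The highest cluster of each gene was counted as standing out when its level was at least 4-fold the median over the 134 neuronal clusters, with at least 20 UMIs and UMIs in at least 3 libraries. For a gene with a median of 0 the fold was taken over the pooled level of all neurons. By that rule 19 of the 44 genes had a standout cluster, and these highest clusters were 17 different ones. Lower-ranked clusters were not put to the rule. For 6 of these genes the authors had named the cluster after that gene, as with 163: Adamts18/Col25a1, and for 13 they had not. In all, 11 neuronal clusters bear a collagen gene in their name. Means below run over all libraries holding nuclei of the cluster, and clusters held 15 to 227 nuclei.

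Col11a1 and Col25a1 were detected widely, with a UMI in 42.3% and 30.4% of neurons, as was Col4a2, in 38.5%, which had no standout cluster. Col11a1 reached 881, 1243, 1225 and 1098 CPM in cluster 80 (Pdyn/Cpa6), where Pdyn encodes an opioid peptide precursor, and a UMI was present in 92.2% of its nuclei. It stood at 792 ± 160 CPM in cluster 109 (Gcg/Reln), whose name carries the preproglucagon gene of the solitary tract, against a median of 107 CPM over neuronal clusters. Col25a1 reached 1890, 1476, 1549 and 1273 CPM in cluster 163 (Adamts18/Col25a1), and 1243 ± 281 CPM in cluster 86. Its median over neuronal clusters was 83.3 CPM, so both genes had a broad base and a few high clusters.

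Other genes had low medians and a few high clusters. Col27a1 measured 455, 785, 439 and 550 CPM in cluster 161 (Slc17a7/Col27a1) against a median of 3.81 CPM, and cluster 104 (Gabra6/Fat2), a cluster named for genes of cerebellar granule cells, averaged 337 ± 140 CPM. Col4a3 and Col4a4 shared their highest cluster, 107, at 55.4 ± 18.4 and 105 ± 42.0 CPM. Col12a1 measured 343, 204, 251 and 410 CPM in cluster 145 (Col12a1/Tnc). Col5a1, in cluster 175 (Lama1/Sntg2), averaged 110 ± 15.3 CPM against a median of 1.44 CPM.

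Col5a2 and Col6a1 were both highest in cluster 147, which the authors named for them, and Col11a1 stood there at 791 ± 72.2 CPM. Col18a1 measured 117, 191, 185 and 226 CPM in cluster 46 (Col18a1/Gpc3). Col13a1 averaged 61.9 ± 21.2 CPM in cluster 63 (Ebf2/Th), whose name carries the gene for catecholamine synthesis, and its median was 0.139 CPM. Col23a1 averaged 156 ± 43.8 CPM in cluster 101 (Kcnmb2/Ebf3). Col24a1 was uneven between libraries in cluster 72 (Ano2/Foxp2), at 186, 249, 22.3 and 127 CPM. Control 2 and DREADD 1 held 6 nuclei of it each. Col8a1 reached 274 ± 191 CPM in cluster 185 (Hmcn2/Abcb5), which had 15 nuclei and libraries between 60.7 and 524 CPM.

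Col19a1, also a gene with a standout cluster, was close between its leading clusters, at 179 ± 86.9 CPM in cluster 143 and 179 ± 9.80 CPM in cluster 133. Col16a1 reached 161 CPM in cluster 152, Col11a2 62.7 CPM in cluster 153, Col6a2 53.0 CPM in cluster 149 and Col14a1 51.7 CPM in cluster 77. For the 25 other collagen genes the highest neuronal cluster did not meet the rule. Of these only Col4a2, at 2.38-fold, fell short of the fold. The rest missed the minimum of UMIs or libraries, among them Col28a1 at 123-fold, Col6a4 at 119-fold and Col15a1 at 39.8-fold. The rule thus sorted these genes mainly by counts and does not show them to be evenly spread. The share of all genes that would meet it is not given here.

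**Figure D4:**
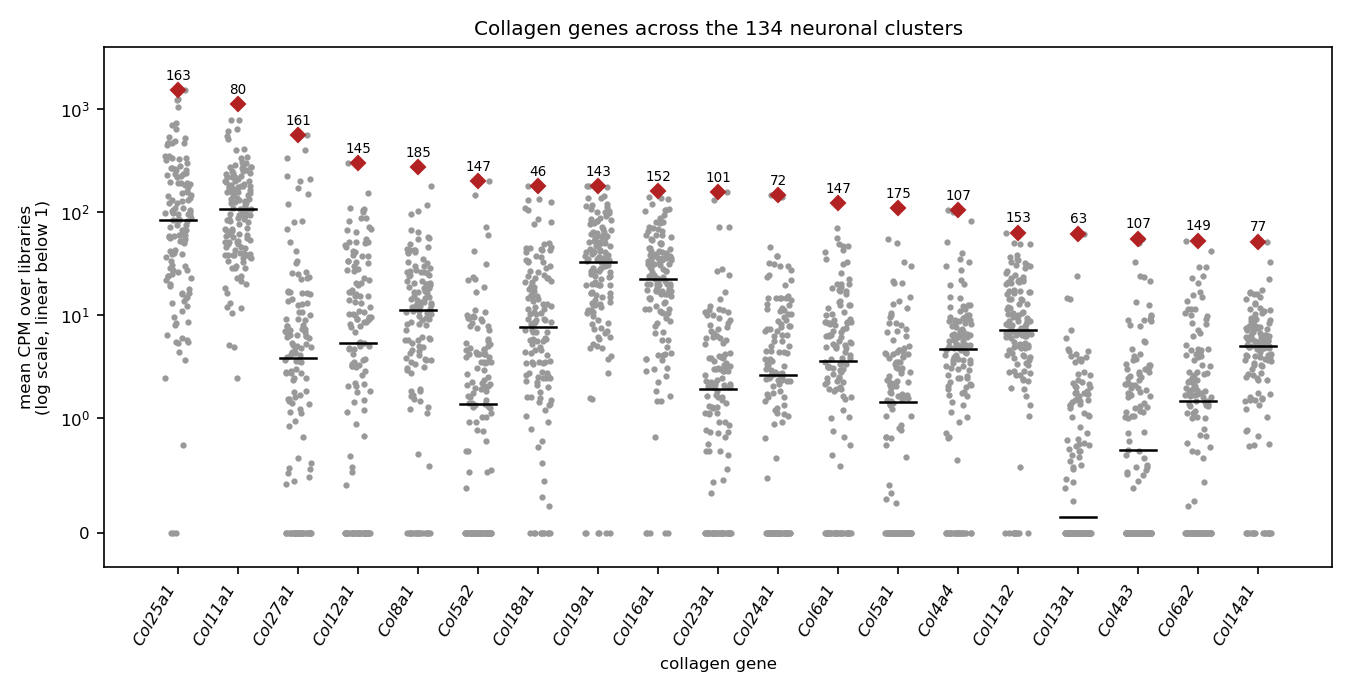
Mean CPM over libraries of the 19 collagen genes with a standout neuronal cluster (horizontal axis), each grey point a neuronal cluster of the 134, the black bar their median and the red diamond the highest cluster with its number. The vertical axis is a log scale, linear below 1. Col11a1 and Col25a1 have medians of 107 and 83.3 CPM, and Col13a1 one of 0.139 CPM.

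Genes that make, process, bind or accompany collagens were described from 5 lists written from general knowledge. Of 19 genes for chain synthesis in the endoplasmic reticulum, 4 were led by fibroblasts and 14 by types other than fibroblasts, mural or endothelial cells. Ms4a4b.Immune, a type of only 61 nuclei, led for P4hb, Plod3, Crtap and Ppib, and among receptors for Itga2, Itgb1 and Antxr2. Crtap averaged 33.6 ± 25.2 CPM there, and the few nuclei limit all such leads. Serpinh1, the collagen chaperone, averaged 99.6 ± 17.0 CPM in fibroblasts, 96.0 CPM in mural cells and 0.885 CPM in neurons. P3h2, a prolyl hydroxylase that prefers type IV chains, was highest in microglia at 592 ± 52.9 CPM. Of 9 processing and crosslinking genes with at least 100 UMIs, 5 were led by fibroblasts. Pcolce, an enhancer of procollagen cleavage, averaged 143 ± 54.9 CPM there, but its relative Pcolce2 was highest in oligodendrocytes at 204 ± 55.7 CPM.

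Of 11 receptor genes, 2 were led by fibroblasts and 1 by mural cells. The integrin Itga1 averaged 1091 ± 225 CPM in mural cells, the tyrosine kinase Ddr2 183 ± 36.0 CPM in fibroblasts and the inhibitory immune receptor Lair1 896 ± 119 CPM in microglia. Of 16 basement-membrane genes, 5 were led by fibroblasts, 5 by mural and 4 by endothelial cells. The linker Nid1 averaged 374 ± 27.9 CPM in mural cells. Of 8 proteases and small proteoglycans, 6 were led by fibroblasts, Dcn among them at 1254 ± 449 CPM. No gene of the lists with at least 100 UMIs was led by neurons.

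The comparison between groups asked whether exciting AgRP and silencing POMC neurons for 1 h was accompanied by other collagen levels in the hindbrain. No collagen gene passed the threshold (edgeR quasi-likelihood test, Benjamini-Hochberg adjustment over all genes, adjusted p under 0.05). In 129 tests of 38 genes over 11 cell types, 0 were called by edgeR, 8 had an unadjusted p under 0.05 and DESeq2 called 0. Of these 8, 2 lay in tanycyte-like cells and 1 in OPC, types outside the 6 from which genes are named. The unadjusted share was 6.20%, against 5.69% of all genes tested. The remaining 6 genes were too sparse to be tested in any type, and F13a1.Immune and Ms4a4b.Immune cells had no collagen gene past the detection filter. Log2 fold changes of DREADD over control ranged from -2.17 to 2.47, with a median of 0.05.

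Few genes of any kind were called by the main edgeR fit of all 4 libraries, and 0 in neurons and in oligodendrocytes. DESeq2 called 10 of 12115 genes in neurons and 119 of 6646 in oligodendrocytes. Without DREADD 2 edgeR called 2017 of 12115 genes in neurons and 507 of 6646 in oligodendrocytes, and without DREADD 1 it called 29 and 113. The share of all genes called was 0.626% in astrocytes, with 0 of 10 collagen genes, 0.437% in mural cells, with 0 of 12, and 0.0444% in OPC, with 0 of 10. It was 0.136% in Ms4a4b.Immune and 0.0154% in F13a1.Immune cells. In neurons it was 0%, with 0 of 18 collagen genes, and in fibroblasts 0%, with 0 of 30. The share was likewise 0% in oligodendrocytes, Tmem119.Immune, endothelial, ependymal and tanycyte-like cells and in Oligodendrocytes/OPC. With 2 libraries in each group, an exact permutation of 1 value could not give a p below 0.333.

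Col11a1 in astrocytes came nearest to the threshold, at 35.5, 37.8, 55.6 and 57.8 CPM. The groups did not overlap, and the log2 fold change was 0.67 ± 0.14 (SE), with an edgeR adjusted p = 0.0547 (unadjusted 0.000417). Over the alternative settings the adjusted p ran from 0.000206 to 0.208, and it passed the threshold without a gene filter, with the replicate number as a block, with those numbers crossed as a block and without DREADD 2. Astrocyte clusters 20, 48 and 54, those highest for Col11a1, made up 11.4%, 15.1%, 21.4% and 25.7% of astrocytes. With every astrocyte cluster weighted equally the levels were 61.6, 59.0, 72.8 and 65.9 CPM. The summed neuronal marker level in astrocytes was 135, 179, 101 and 164 CPM.

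In neurons Col11a1 measured 136, 151, 161 and 177 CPM, with a log2 fold change of 0.29 ± 0.08 and adjusted p = 0.81 by edgeR. With equal weight for the 120 neuronal clusters that had at least 5 nuclei in every library, the levels were 141, 149, 168 and 171 CPM. Col18a1 in neurons measured 14.6, 14.4, 16.2 and 24.7 CPM, a log2 fold change of 0.54 ± 0.17 with adjusted p = 0.81. With equal weight for the same 120 clusters the Col18a1 levels were 18.3, 16.7, 17.9 and 22.8 CPM, and the groups overlapped. In the fit over all neurons the adjusted p of Col18a1 was 0.0212 with the replicate number as a block, and DREADD 2 held the highest value. The Col18a1 fold change was 0.28 without DREADD 2. Col9a3 in neurons overlapped between groups, at 4.80, 6.78, 5.20 and 10.1 CPM, as it did in oligodendrocytes, at 22.2, 26.0, 21.3 and 26.7 CPM. In both types Col9a3 was higher in control 2 and DREADD 2, the libraries with more choroid plexus marker RNA, whose part was not tested.

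Mural Col4a5 was lower in both DREADD libraries, at 177, 180, 94.7 and 116 CPM, a log2 fold change of -0.69 ± 0.28 with edgeR adjusted p = 0.54. Cluster 98, the mural cluster with more Col4a5, made up 13.1%, 15.9%, 6.80% and 9.20% of mural nuclei. With both mural clusters weighted equally the Col4a5 levels were 206, 221, 94.6 and 157 CPM. In DREADD 1 and DREADD 2 cluster 98 held 7 and 15 nuclei, with 1 and 5 Col4a5 UMIs. The gene is X-linked, and Xist, the transcript of the inactive X chromosome, measured 713, 471, 729 and 22.4 CPM over all nuclei. DREADD 2 was thus the library with the least Xist. The part of the sex makeup of the libraries was not tested, for this gene or for any other comparison between groups. Col8a1 and Col4a6 in mural cells had log2 fold changes of -0.62 ± 0.31 and -0.37 ± 0.30, with adjusted p of 0.74 and 0.90 by edgeR. The mural Col8a1 value was -0.070 without DREADD 2 and -1.08 without DREADD 1, and that of Col4a6 was -0.12 without control 1 and -0.57 without control 2. Endothelial Col4a1 and Col4a2, at -0.26 ± 0.21 and -0.24 ± 0.23, had adjusted p of 0.92 and 0.94. The Col4a1 value ran from -0.44 without DREADD 2 to -0.13 without DREADD 1, and it was -0.17 without cluster 164. For Col4a2 it was -0.40 without control 2, -0.091 without control 1 and -0.12 without DREADD 2.

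In fibroblasts as a whole, Col26a1, Col8a1 and Col4a6 had log2 fold changes of 0.71 ± 0.36, 0.75 ± 0.46 and -0.82 ± 0.54, each with edgeR adjusted p = 0.9998. With a library left out, the Col26a1 value ran from 0.35 without DREADD 2 to 1.30 without control 2. The other genes changed sign, Col8a1 from -0.0021 to 1.28 and Col4a6 from -1.48 to 0.25. The fibroblast cluster shares given above differ between the libraries, so the clusters were also compared one at a time. In clusters 27, 44 and 47, the ones with at least 5 nuclei in every library, 0 of 74 tests were called by edgeR and 0 by DESeq2, and 6 had an unadjusted p under 0.05, which is 8.11% against 3.75% of all genes tested. The share of all genes called was 0.223% in cluster 27, 0.0583% in cluster 44 and 0% in cluster 47. Col8a1 had the lowest unadjusted p in cluster 47, with log2 fold changes of 0.90, 0.88 and 1.95 in clusters 27, 44 and 47. The edgeR adjusted p was 0.9998, 0.846 and 0.999. Cluster 47 held 6 and 14 nuclei in control 1 and DREADD 1, where Col8a1 measured 0 and 1387 CPM.

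Astrocyte Col23a1 and Col27a1 had log2 fold changes of 0.28 ± 0.14 and 0.24 ± 0.16, with edgeR adjusted p of 0.55 and 0.66. The Col23a1 value was 0.17 without control 1. Oligodendrocyte Col16a1, at 0.23 ± 0.14, had an adjusted p of 0.67, and Col9a3, at 0.05 ± 0.14, one of 0.93. The Col16a1 value was 0.026 without DREADD 1 and 0.41 without DREADD 2. Of 316 tests of the partner genes, 0 were called by edgeR, 31 had an unadjusted p under 0.05, which is 9.81% against 5.69% of all genes, and DESeq2 called 3, all in oligodendrocytes. In that type DESeq2 called 119 of 6646 genes, or 1.79%. These were Lamc1 at -0.67 ± 0.20, Pcolce2 at -0.63 ± 0.15 and Adamts2 at 0.76 ± 0.20 on the log2 scale, with DESeq2 adjusted p of 0.0409, 0.00262 and 0.0133. Lamc1 encodes a laminin chain and Adamts2 a procollagen protease. In the fibroblast clusters edgeR called 0 of 119 partner tests, with 5 at an unadjusted p under 0.05, or 4.20%, and DESeq2 called 0.

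**Figure D5:**
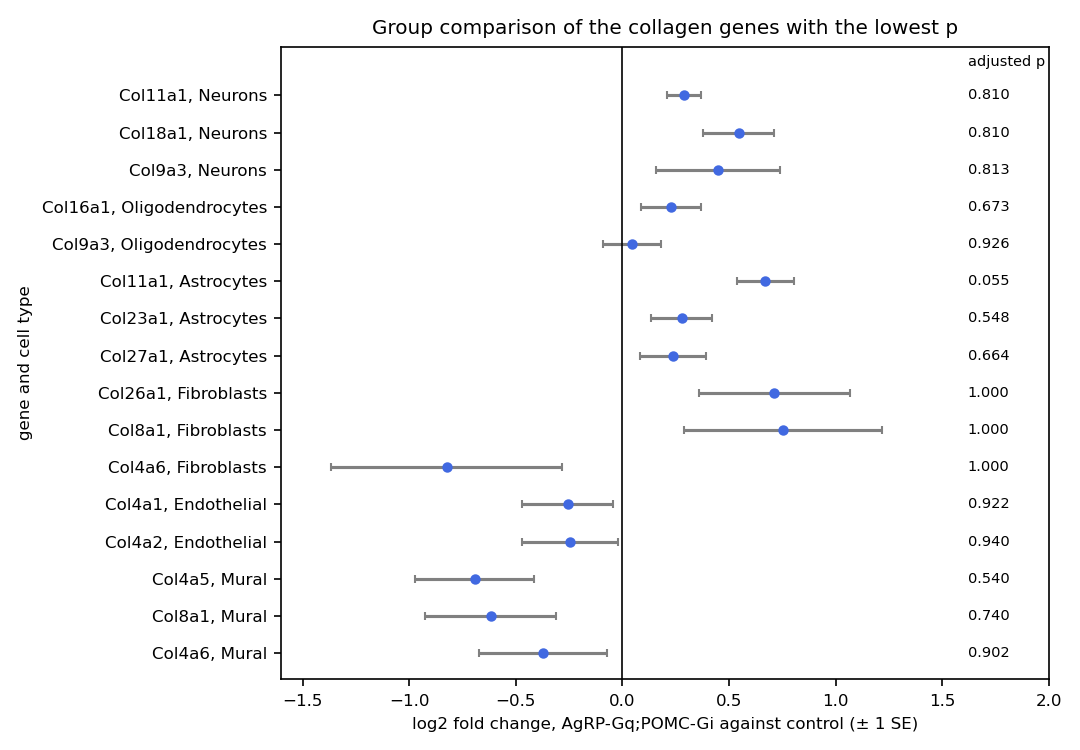
Log2 fold change of the DREADD (AgRP-Gq;POMC-Gi) over the control libraries (points, bars of 1 SE, horizontal axis) for the collagen genes with the lowest p, 3 or fewer in each of 6 cell types (vertical axis), with edgeR's adjusted p at the right. Col11a1 in astrocytes lies nearest to the threshold, at 0.0547, and the other adjusted p are 0.54 or above.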

How the data were processed

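The authors sorted DRAQ5-stained nuclei, prepared libraries with the 10x Genomics 3′ kit, counted UMIs on GRCm38 (Cell Ranger 7.0.0 and Seurat 4.3.0 are named in the submitters' processing notes) and deposited UMI counts per gene and nucleus. Their deposited table of nuclei, whose columns are names rather than measurements (unit other), gave the nuclei kept, cluster and cell type. The paper states that doublets were detected, and only nuclei that passed the authors' quality control were used here. No barcode was filtered further here, and the joined matrix of all libraries was not used. The 3′ counts of nuclear RNA depend on gene length and introns, so levels were compared across cells and not between genes.

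Counts were summed by library for each cell type or cluster, and CPM is this sum relative to the total of those nuclei. Levels are means over libraries with at least 5 nuclei. Shares were also computed after thinning nuclei to 800 UMIs, without an interval. Intervals of the unthinned shares are exact Clopper-Pearson intervals at 95%. The limit given for a count of 0 is 3 divided by the number of nuclei. Groups were compared with edgeR 4.0.16 (quasi-likelihood test, TMM factors, R 4.3.3). Each fit took all genes detected in 5% or more of the nuclei tested, and a gene was called at an adjusted p under 0.05. The study itself used a mixed model over nuclei, whereas here the library was the replicate. Alternatives were to omit each library in turn, to block on the replicate number, to drop the TMM factors, to drop the filter or replace it by filterByExpr, and to use DESeq2 1.42.0. The scripts were tested on simulated data. Python 3.11.15 (pandas 2.3.3, numpy 2.4.6, scipy 1.17.1, matplotlib 3.10.9) made the tables and figures. Gene positions are from GENCODE M21, in which 99.6% of 32285 features were found.

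Named genes were all collagen genes by their leading type, those with a standout neuronal cluster, and the 3 lowest unadjusted p per main cell type. The values given for single non-neuronal clusters were chosen after they were seen. Members were found by symbol, but the gene family, the lists and the rules were chosen with earlier results of these data known.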

Additional observations from a re-analysis of the deposited data

How the results depend on the processing

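The number of collagen genes led by fibroblasts, 20, stayed between 18 and 21 under every alternative, and the 19 genes with a standout neuronal cluster between 15 and 23. The group comparison by cell type gave 0 called collagen genes with edgeR, with DESeq2, without TMM factors and with filterByExpr. It gave 3 without a gene filter (Col11a1 in astrocytes, Col13a1 in endothelial and Col8a1 in tanycyte-like cells). Of all genes, 305 of 23026, 52 of 18126 and 48 of 17264 were called in those fits. Tanycyte-like Col8a1 had 22 UMIs in cluster 61, 15 of them in control 1, and 0 in cluster 141. Its levels in cluster 61 were 392, 33.4, 6.14 and 16.6 CPM. Endothelial Col13a1 averaged 23.0 ± 42.1 CPM, an SD above its mean. Without cluster 164 the endothelial fit without a gene filter called 55 of 17951 genes and 0 collagen genes. Leaving out a library leaves 1 in its group. Without control 2 Col25a1 in Oligodendrocytes/OPC had a log2 fold change of 8.51. The remaining control 1 held 0 nuclei of cluster 138. Without DREADD 1 the gene called was Col18a1 in neurons. Without DREADD 2 the genes called were Col16a1 in oligodendrocytes and Col11a1 in neurons and in astrocytes. In that last setting all genes called were 507 of 6646 in oligodendrocytes, 2017 of 12115 in neurons and 127 of 8462 in astrocytes. The fibroblast clusters gave 0 in every setting. The partner lists gave 3 with DESeq2, 6 without a filter and between 1 and 13 when a library was left out, the most without DREADD 2. With the replicate number as a block the collagen genes gave 2 (Col18a1 in neurons, Col11a1 in astrocytes), the partner lists 6 and the fibroblast clusters 0. Of all genes, 169 of 12115 in neurons and 426 of 8462 in astrocytes were called with that block. The labels do not say that a number marks a shared batch. Correlations of same-numbered deviations ran from -0.45 in Oligodendrocytes/OPC to 0.34 in oligodendrocytes. The correlation was -0.035 in Oligodendrocytes/OPC without cluster 138. It was 0.24 in astrocytes, 0.18 in neurons and -0.15 in fibroblasts. Whether same-numbered libraries share a batch was not tested. A crossed pairing, chosen after seeing the data, gave 1 collagen gene, Col11a1 in astrocytes, and 4 partner genes. In astrocytes 122 of 8462 genes of any kind were called with it.

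Over all genes and cell types, the main fit gave 91 calls in 101074 tests. Over as many tests there were 186 calls without TMM factors, 207 with DESeq2, 924 with the block and 415 with the crossed block. Without a filter there were 917 calls in 246437 tests. The number of calls also changed when a library was left out, which leaves 1 library in a group. Of 16 named log2 fold changes of DREADD over control, signs turned for 4. For Col9a3 in neurons the values ran from -0.041 without DREADD 2 to 0.81 without DREADD 1. For Col9a3 in oligodendrocytes they ran from -0.065 without control 1 to 0.16 without control 2, and the value was -0.03 without DREADD 2 and -0.0071 without TMM factors. For Col8a1 in fibroblasts they ran from -0.0021 without DREADD 1 to 1.28 without control 2. For Col4a6 in fibroblasts they ran from -1.48 without control 2 to 0.25 without control 1. Alternatives that leave out clusters 93, 138 or 164, or add the choroid plexus, were chosen after seeing the data. Without cluster 93 or 138, or with the choroid plexus added, fibroblasts led 19 or 20 genes. Groups were compared again only without cluster 138 or 164, and 0 collagen genes were called. Without cluster 138, OPC led 0 genes where it had led 1. In Oligodendrocytes/OPC the genes called went from 0 of 8930 to 4 of 8685, and the collagen genes tested from 19 to 8. Collagen genes with an unadjusted edgeR p under 0.05 went from 0 to 2 (Col11a1 and Col20a1). The share of all genes with such a p rose as well, from 1.34% to 4.72%. Without cluster 164 the endothelial genes called went from 0 of 5884 to 2 of 5877. Depth limits the sparse chains: those under 20 UMIs in their leading type have no order.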
